A study of Mus musculus with 5 samples.

Results

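The genes Tlx1, Nkx2-5, Nkx2-3, Nkx3-2, Wt1 and Tcf21 encode transcription factors of the mesenchyme that forms the spleen. They were followed in RNA from mouse samples labelled as colorectal cancer (CRC) tumours. They were picked by name from the deposited count table, where they are 6 of 54113 named entries. The choice was made with their levels in these libraries and earlier results of the comparison already known. Levels and temperature differences of the 6 genes are therefore given as a description, and no test was run on the 6 genes as a set. The series holds 3 samples labelled as CRC tumours from C57BL/6 mice exposed to 30 °C, which is thermoneutral for mice. It holds 2 samples so labelled from C57BL/6 mice exposed to 4 °C, both groups for 2 weeks. No transgene, deletion or drug is given for either group, and the labels name neither the tumour line, the site of implantation, the age nor the sex. In the study's methods the mouse CRC model was MC-38, a colon adenocarcinoma cell line, implanted into C57BL/6 mice. The study calls the libraries biological samples, but the labels do not say that each came from its own animal, so the spread between libraries may be partly technical.

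The spleen arises in the embryo from mesenchyme beside the dorsal pancreas, and a small circuit of transcription factors sets up and maintains this tissue. Mice without Tlx1, Tcf21, Nkx3-2 or Wt1 form no spleen or lose its rudiment early, whereas loss of Nkx2-3 leaves a small spleen with disturbed red and white pulp. Nkx2-5 acts in the same rudiment and is better known as a factor of the developing heart. In the adult spleen several of these genes stay on in stromal cells such as reticular fibroblasts, and not in the blood cells that fill the organ. Wt1 and Tcf21 are shared with other tissues, Wt1 with kidney podocytes and mesothelium and Tcf21 with fibroblasts of several organs.

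In the mouse genome (build GRCm38, gene models of GENCODE M21), Tlx1 and Nkx2-3 lie on the same chromosome. Tlx1 (ENSMUSG00000025215.10) spans chr19:45150680-45156943 on the plus strand and Nkx2-3 (ENSMUSG00000044220.13) spans chr19:43612325-43615892 on the plus strand, with 1.53 Mb between them. The other genes lie apart. Nkx2-5 (ENSMUSG00000015579.5) is at chr17:26838664-26845009 on the minus strand and Nkx3-2 (ENSMUSG00000049691.8) at chr5:41761483-41764501 on the minus strand. Wt1 (ENSMUSG00000016458.14) is at chr2:105126529-105173616 on the plus strand and Tcf21 (ENSMUSG00000045680.8) at chr10:22817281-22820174 on the minus strand. Values are for whole genes, since the table holds no exon or isoform counts. Both genes annotated on the opposite strand of a member share 0 exonic bases with it. Tlx1os, antisense to Tlx1, had between 0 and 6 counts in a library, and Gm10824, antisense to Tcf21, had between 6 and 27.

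Upstream sequence was read from RefSeq promoters (GRCm38.p6), which hold 5 of the 6 genes. Windows of 200 bases, from base -250 to base -51 before the start of transcription, were searched on both strands for 5 short motifs. The CCAAT box, the site of the general activator NF-Y, was present in 2 of the 5 windows, those of Tlx1 and Nkx2-3, and in 28.4% of all 32851 promoter windows. These windows are shown because they belong to the pair on chr19 and carry the box at nearly the same distance, with its first base at -103 in Tlx1 and -105 in Nkx2-3. Capitals mark the CCAAT box; in Nkx2-3 a second one on the opposite strand overlaps it. The Tlx1 window is chr19:45150465-45150664 and the Nkx2-3 window chr19:43612075-43612274, both on the plus strand and written 5′ to 3′.
Tlx1: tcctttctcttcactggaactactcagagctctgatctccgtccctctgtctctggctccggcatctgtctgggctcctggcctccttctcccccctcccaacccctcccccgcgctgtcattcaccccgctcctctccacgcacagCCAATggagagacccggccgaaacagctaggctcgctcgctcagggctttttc
Nkx2-3: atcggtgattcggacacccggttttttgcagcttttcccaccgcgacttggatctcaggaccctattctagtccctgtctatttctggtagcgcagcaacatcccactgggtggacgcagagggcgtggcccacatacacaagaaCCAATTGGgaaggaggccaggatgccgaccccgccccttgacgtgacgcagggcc

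The other motifs did not single out the 5 genes. GGGCGG, the GC box, was in 2 of 5 windows and in 24.6% of all. TATAAA was in 0 of 5 and in 9.14% of all. The core of the NKX2 site, AAGTG, was in 1 of 5 and in 34.2% of all, and CANNTG, the E-box read by factors of the Tcf21 class, was in 4 of 5 and in 59.0% of all. The share of G and C was 62.0% in the Tlx1 window, 58.5% in Nkx2-3, 66.5% in Nkx3-2, 54.5% in Tcf21 and 46.5% in Nkx2-5, against a median of 51.5% over all windows.

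Counts on named genes summed to 16191708 to 20320525 per library, and a count of 3, taken as the floor of detection, corresponds to 0.148 to 0.185 CPM (counts scaled to a library total of 1000000). One library stood apart. In 30 °C replicate 2, 18 pancreatic acinar enzyme genes took 253899 CPM, against 20.4 to 2495 CPM in the other 4 libraries, which lowers the CPM of every other gene in that library. Trimmed mean (TMM) scaling gave it a factor of 0.738 and gave the others 1.03 to 1.13, so levels are given both as CPM and, for the comparison, as TMM-scaled CPM.

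All 6 genes were above the floor in every library, with counts between 36 (Nkx3-2) and 936 (Tcf21). Tlx1, the homeodomain factor that spleen cells need to survive in the embryo, had 336, 173 and 380 counts in the libraries at 30 °C and 563 and 444 at 4 °C. These are 19.2, 10.5 and 18.7 CPM at 30 °C (16.1 ± 4.91, SD, n = 3) and 30.2 and 27.4 CPM at 4 °C (28.8 ± 2.00, SD, n = 2). Both libraries at 4 °C lay above all 3 at 30 °C, in raw counts as well as in CPM. Nkx2-5, the cardiac homeodomain factor, had 87, 48 and 118 counts at 30 °C and 159 and 147 at 4 °C. It stood at 4.98, 2.90 and 5.81 CPM (4.56 ± 1.5, SD, n = 3) and at 8.54 and 9.08 CPM (8.81 ± 0.379, SD, n = 2). Its groups were likewise apart on both scales. The share of all tested genes that lie apart was not counted in raw counts or plain CPM.

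Nkx2-3 is needed for the adhesion molecule MAdCAM-1 on spleen and gut vessels. Its counts were 307, 175 and 449 at 30 °C and 509 and 364 at 4 °C. They correspond to 17.6, 10.6 and 22.1 CPM (16.7 ± 5.80, SD, n = 3) and to 27.3 and 22.5 CPM (24.9 ± 3.44, SD, n = 2). The groups did not overlap in CPM, but 30 °C replicate 3 and 4 °C replicate 2 were close, with exact Poisson 95% intervals of 20.1 to 24.2 and 20.2 to 24.9 CPM, which cover counting error only. Nkx3-2 (Bapx1), a factor of the axial skeleton and of the early spleen, had the lowest mean count of the 6 at both temperatures. It had 36, 53 and 92 counts at 30 °C and 145 and 53 at 4 °C. Only in 30 °C replicate 2 was another of the genes, Nkx2-5, lower, at 48 counts. Nkx3-2 stood at 2.06, 3.21 and 4.53 CPM (3.26 ± 1.24, SD, n = 3) and at 7.79 and 3.27 CPM (5.53 ± 3.19, SD, n = 2). Its groups overlapped, and the difference between the libraries at 4 °C exceeded counting error, with intervals of 6.57 to 9.17 and 2.45 to 4.28 CPM.

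Wt1, a zinc finger factor, had 128, 82 and 140 counts at 30 °C and 205 and 119 at 4 °C. Its levels were 7.32, 4.96 and 6.89 CPM (6.39 ± 1.26, SD, n = 3) and 11 and 7.35 CPM (9.18 ± 2.59, SD, n = 2). The groups touched, since 30 °C replicate 1 (7.32 CPM) and 4 °C replicate 2 (7.35 CPM) were equal within counting error. Tcf21 (capsulin), a basic helix-loop-helix factor of visceral fibroblasts, had 397, 251 and 825 counts at 30 °C and 753 and 936 at 4 °C. In CPM these are 22.7, 15.2 and 40.6 (26.2 ± 13.1, SD, n = 3) and 40.5 and 57.8 (49.1 ± 12.3, SD, n = 2). Replicate 3 at 30 °C matched replicate 1 at 4 °C for this gene, and the other 2 libraries at 30 °C were lower.

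**Figure D1:**
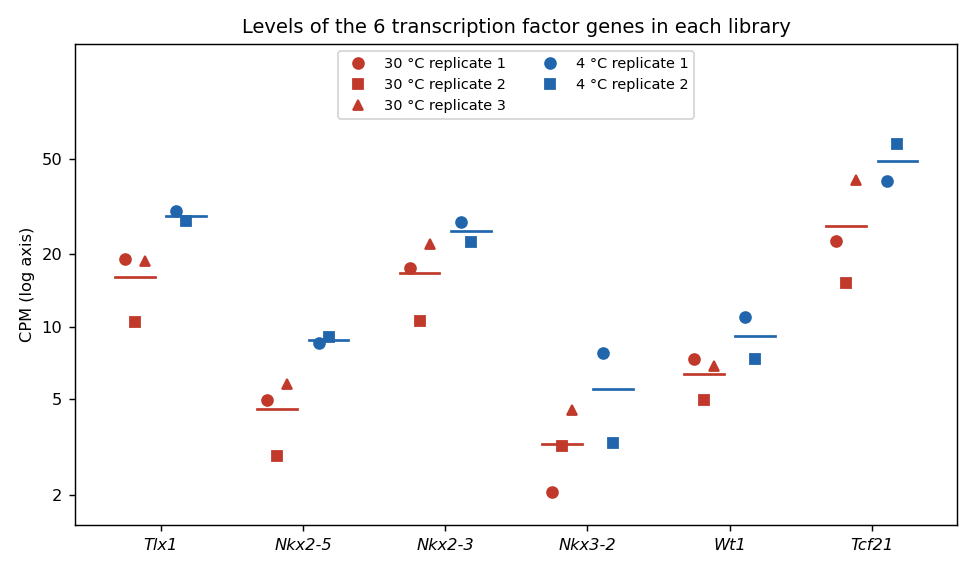
CPM (log axis) of each of the 6 genes, with 1 point per library, red for 30 °C and blue for 4 °C, and a line at the group mean. The groups do not overlap for Tlx1, Nkx2-5, Nkx2-3 and, narrowly, Wt1, whereas they overlap for Nkx3-2 and Tcf21. The share of all tested genes that lie apart was not counted on plain CPM, on which acinar transcripts lower 30 °C replicate 2. On the TMM scale, 12.2% of all tested genes had both libraries at 4 °C above all 3 at 30 °C.

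From the lowest to the highest library, the level differed 2.22-fold for Wt1, 2.58-fold for Nkx2-3, 2.89-fold for Tlx1, 3.13-fold for Nkx2-5, 3.78-fold for Nkx3-2 and 3.81-fold for Tcf21. For 5 of these genes the lowest library was 30 °C replicate 2, the one rich in acinar transcripts, and for Nkx3-2 it was 30 °C replicate 1. With the acinar genes taken out of the total, 30 °C replicate 2 reached 14 CPM for Tlx1, 3.89 for Nkx2-5, 14.2 for Nkx2-3, 6.65 for Wt1, 20.3 for Tcf21 and 4.30 for Nkx3-2. It then was still the lowest of the 5 for each gene but Nkx3-2. Summed over the 6 genes, the level without acinar genes was 73.8, 63.4 and 98.6 CPM at 30 °C (78.6 ± 18.1, SD, n = 3) and 125 and 128 CPM at 4 °C (127 ± 1.65, SD, n = 2).

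Because the genes differ in length (1718 exonic bases in Nkx3-2, 6195 in Wt1), they were compared with each other as CPM per kilobase of exon. Tcf21 was the highest in every library, at 9.67, 6.46 and 17.3 CPM per kilobase at 30 °C and 17.2 and 24.6 at 4 °C. Tlx1 (4.89 to 14.1) and Nkx2-3 (5.01 to 12.9) followed and did not hold an order between them. Tlx1 was above Nkx2-3 in 3 libraries and below it in 30 °C replicates 2 and 3, with a ratio of 0.836 to 1.20. Nkx2-5 stood at 1.69 to 5.28 CPM per kilobase and was below Nkx2-3 in all 5 libraries, at 0.323 to 0.496 of its level. Nkx3-2 (1.20 to 4.53) was below Nkx2-5 in every library but 30 °C replicate 2. Wt1 was the lowest in all 5, at 0.801 to 1.78 CPM per kilobase, although in 30 °C replicate 1 it was hardly below Nkx3-2 (1.18 against 1.20). That rank depends on the length used, the union of all annotated exons. In plain CPM Wt1 was above Nkx3-2 in all 5 libraries. Among genes with a count, 11.2% to 25% stood at or above the level of Tcf21 per kilobase in a library, and 50.7% to 59.1% at or above that of Wt1.

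**Figure D2:**
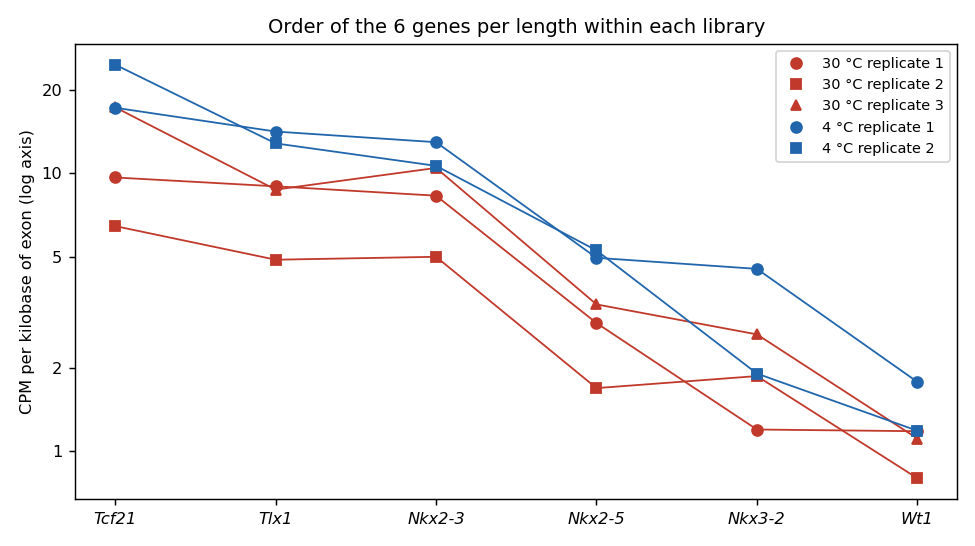
CPM per kilobase of exon (log axis) of the 6 genes, with 1 line per library. Length is the union of all annotated exons, and the order depends on it. All lines start highest at Tcf21 and end lowest at Wt1, and they cross between Tlx1 and Nkx2-3 and between Nkx2-5 and Nkx3-2.

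To ask how the 6 genes differed between the temperatures, edgeR's quasi-likelihood test was fitted over 16133 genes with enough counts, with the levels scaled by TMM. All 6 passed the filter on low counts and all 6 had a log2 fold change above 0, that is, higher at 4 °C. It was 0.86 ± 0.27 (SE) for Nkx2-5, 0.85 ± 0.32 for Tcf21, 0.75 ± 0.19 for Tlx1, 0.61 ± 0.51 for Nkx3-2, 0.49 ± 0.21 for Nkx2-3 and 0.40 ± 0.27 for Wt1. In linear terms the ratios ran from 1.32 for Wt1 to 1.82 for Nkx2-5. Their median log2 fold change was 0.68, against 0.0064 over all tested genes, of which 50.7% were above 0. None of the 6 passed the threshold of an adjusted p under 0.05 over all tested genes, and neither did any other gene, so that 0 of 6 stands beside 0% called. The adjusted p of the 6 genes ran from 0.69 to 0.86 with edgeR. At an unadjusted p under 0.05, 3 of 6 were higher at 4 °C (Tlx1, Nkx2-5 and Tcf21), against 2.58% of all tested genes. That count rested on single libraries, and was 1 of 6 without 30 °C replicate 2 or without 4 °C replicate 2, 2 without 30 °C replicate 1 and 4 without 30 °C replicate 3. With DESeq2, 0 of 6 passed the adjusted threshold, against 0.891% of all genes given an adjusted p, and 3 of 6 had an unadjusted p under 0.05, against 1.5% of all genes with a p, counting those higher at 4 °C.

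On the TMM scale both libraries at 4 °C lay above all 3 at 30 °C for 5 of the 6 genes, against 12.2% of all tested genes. Tlx1 stood at 17.9, 14.2 and 16.6 TMM-scaled CPM at 30 °C and at 28.0 and 26.6 at 4 °C. Tcf21, which overlapped in plain CPM, was apart on this scale, at 21.1, 20.6 and 36.0 against 37.4 and 56.1. The exception was Nkx3-2, at 1.92, 4.35 and 4.02 against 7.21 and 3.18. Since the 6 genes were chosen with these results known, nothing is read from either count.

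Single libraries set the size of the difference for 3 of the genes. Nkx3-2 turned to -0.11 on the log2 scale without 4 °C replicate 1, was 1.06 without 4 °C replicate 2 and was 0.32 without 30 °C replicate 1. Wt1 was 0.12 without 4 °C replicate 1 and was 0.62 without 4 °C replicate 2. Tcf21 was 0.52 without 4 °C replicate 2 and 1.16 without 30 °C replicate 3. In contrast, Tlx1 stayed between 0.65 and 0.82, Nkx2-5 between 0.76 and 0.96 and Nkx2-3 between 0.38 and 0.62 with each of the 5 libraries left out in turn. Without 30 °C replicate 2, the library rich in acinar transcripts, the log2 fold change was 0.65 for Tlx1, 0.76 for Nkx2-5, 0.38 for Nkx2-3, 0.80 for Nkx3-2, 0.41 for Wt1 and 0.70 for Tcf21.

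The 6 profiles over the 5 libraries were not all alike. Likeness was measured as the root mean square difference between centred log2 CPM values, in which 0 means the same relative levels in every library. Tlx1 and Nkx2-5 were the closest pair, at 0.12, and 27 of the 16133 tested genes were nearer to Tlx1 than Nkx2-5 was. Other members were less close to Tlx1, with 141 genes nearer than Nkx2-3, 922 nearer than Wt1, 3532 nearer than Tcf21 and 11569 nearer than Nkx3-2. Tlx1 and Nkx2-3 differed by 0.18, and Nkx2-5 and Tcf21 by 0.24. Nkx3-2 differed from each of the others by 0.48 to 0.69, with Tcf21 the farthest, and Wt1 and Tcf21 differed by 0.54. Nkx3-2 had its lowest level in 30 °C replicate 1 and its highest in 4 °C replicate 1, whereas Tcf21 was highest in 4 °C replicate 2.

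Among tested genes outside the 6, those nearest to the mean profile of the 6 genes were Gm11539 (0.019), Kctd21 (0.048), Bend5 (0.059), Gm9727 (0.059) and Gm45871 (0.062). Nearest to Nkx2-3 was Nr5a1 (0.033), the nuclear receptor of steroid-producing tissues that is also expressed in spleen vessels. Nr5a1 stood at 15.3, 13.1 and 18.9 TMM-scaled CPM at 30 °C and at 24.3 and 20.01 at 4 °C, which follows Nkx2-3 library by library (16.3, 14.4 and 19.6, then 25.3 and 21.8). Snx20 (0.041) came next. For Nkx2-5 the nearest were Ccdc114 (0.026) and Klf2 (0.041), a factor of resting lymphocytes and of endothelium. Klf2 stood at 112, 94.4 and 127 TMM-scaled CPM at 30 °C and at 178 and 209 at 4 °C. Near Tlx1 were Gm10644 (0.026) and Gm6170 (0.045), near Wt1 AW146154 (0.055), near Tcf21 Crip3 (0.074) and Trim34b (0.076), and near Nkx3-2 Plce1 (0.081) and Gm2682 (0.10). With 5 libraries many profiles are alike, and these distances are a description.

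Most close relatives of the 6 genes were nearly silent. Of 12 paralogs looked up, Tlx3, Nkx2-1, Nkx2-4 and Nkx2-9 were at 0 in all 5 libraries, and Tlx2 had at most 4 counts, Nkx2-2 at most 6 and Nkx2-6 at most 2. In the class of Tcf21, Msc (musculin) was above the floor in every library, at 3.88, 3.20 and 3.01 TMM-scaled CPM at 30 °C and at 5.52 and 5.93 at 4 °C (log2 fold change 0.76 ± 0.29, SE). Tcf23 had a log2 fold change of 0.69 ± 0.68, and Tcf15 had 0 to 7 counts. None of the paralogs passed the threshold, and 2 of the 12 had enough counts to be tested.

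Other factors of spleen formation had no common direction. Of 10 genes, 6 were tested, 3 were higher and 3 lower, 0 passed the threshold, and their median log2 fold change was -0.085. Nr2f2, a nuclear receptor of venous endothelium and mesenchyme, stood at 28.3, 19.4 and 24.1 TMM-scaled CPM at 30 °C and at 39.0 and 39.1 at 4 °C (log2 fold change 0.71 ± 0.21, SE). Foxf1, a forkhead factor of visceral mesenchyme, had 0.94 ± 0.83, with 5.0, 0.657 and 1.88 against 2.44 and 7.37.

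Tlx1 restrains retinoic acid signalling in the spleen rudiment, and 14 genes of that pathway were looked up. Of these, 12 were tested, 11 had a positive and 1 a negative log2 fold change, 0 passed the threshold, and the median was 0.40. The negative one was Aldh1a1, an enzyme that makes retinoic acid, at 92.8, 142 and 81.5 TMM-scaled CPM at 30 °C and at 59.7 and 64.7 at 4 °C (-0.76 ± 0.27, SE). Both libraries at 4 °C lay below all 3 at 30 °C for this gene. The share of all tested genes that lie below in this way was not counted. Stra6, the retinol importer, had 0.76 ± 0.41, and Rara, a retinoic acid receptor, 0.18 ± 0.18.

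Downstream of Nkx2-3 in the spleen are adhesion molecules and a chemokine that guide lymphocytes. All 4 genes looked up were tested and had a positive log2 fold change (median 0.57), 0 passed the threshold with edgeR, and 2 had both libraries at 4 °C above all 3 at 30 °C, against 12.2% of all tested genes. Cxcl13, the B cell chemokine of follicles, stood at 76.6, 69.5 and 83.0 TMM-scaled CPM at 30 °C and at 137 and 136 at 4 °C (0.84 ± 0.16, SE). Madcam1 stood at 9.79, 9.28 and 12.4 and at 18.1 and 22.1 (0.94 ± 0.23), and Vcam1 had 0.31 ± 0.24. Madcam1, like Nkx2-3, was higher in both libraries at 4 °C than in all 3 at 30 °C, and neither passed the threshold.

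Reticular fibroblasts form the scaffold of the adult spleen and of lymph nodes. Their 12 genes were all above the floor in every library, 10 had a positive and 2 a negative log2 fold change, 0 passed the threshold with edgeR, the median was 0.56, and 6 had both libraries at 4 °C above all 3 at 30 °C, against the same 12.2% over all tested genes. Des (desmin) stood at 39.0, 36.2 and 48.1 TMM-scaled CPM at 30 °C and at 92.8 and 79.6 at 4 °C (1.07 ± 0.19, SE). Thy1 had 0.86 ± 0.20, Csf1, the macrophage growth factor, 0.82 ± 0.24, and Cxcl12, the most abundant per kilobase, 0.62 ± 0.19, with 245, 236 and 221 against 422 and 299. DESeq2 called Des (adjusted p = 0.00348) and Cxcl13 (adjusted p = 0.00605), and called 111 genes over all. Transcription factors of skin and body wall mesenchyme, a stroma outside the viscera, summed to 10.9 to 41.3 CPM in a library. Of 10 such genes 7 were tested, 6 had a positive and 1 a negative log2 fold change, 0 passed the threshold, the median was 0.70, and 0 lay apart between the groups. The median of this list was thus above that of the reticular fibroblast genes. Prrx2 had 0.81 ± 0.85, with 13.1, 2.05 and 4.24 against 5.02 and 17.9, Msx1 had 0.70 ± 0.45 and Prrx1 0.24 ± 0.25. At an unadjusted p under 0.05 with edgeR, 4 of the reticular fibroblast genes, 2 of the adhesion genes, 1 of the other spleen factors, 1 of the paralogs and 0 of the skin and body wall factors were higher at 4 °C, against 2.58% of all tested genes. Of the retinoic acid genes 1 (Aldh1a1) was lower at that threshold, against 4.17% of all tested genes.

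**Figure D3:**
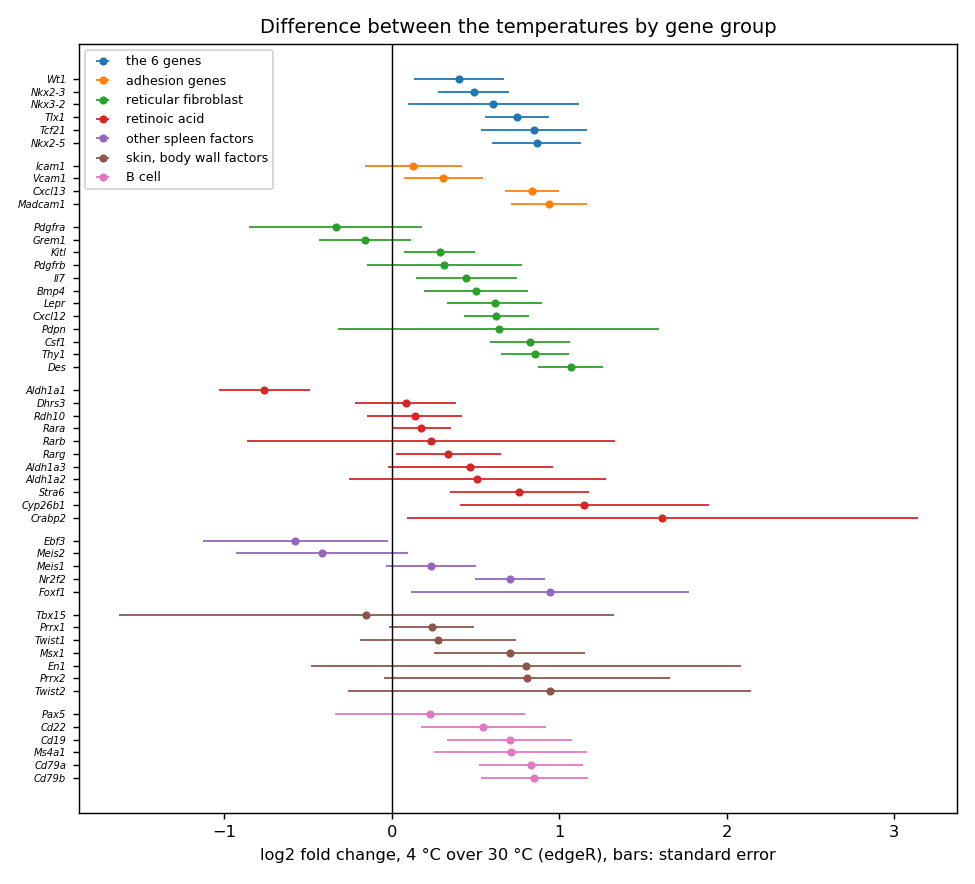
log2 fold change, 4 °C over 30 °C, from edgeR for the 6 genes and reported genes of 6 related groups. Bars are 1 standard error. The erythroblast, red pulp macrophage, mesothelial and epithelial genes, whose medians were negative, are not shown. The 6 genes lie between 0.40 and 0.86, a range that also holds many of the adhesion, reticular fibroblast, skin and body wall and B cell genes, and no gene shown passed an adjusted p under 0.05.

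Markers of the cell types that could carry these genes were read in each library. A change in the number of cells of a type and a change in RNA per cell cannot be told apart in bulk tissue. Summed over the 12 reticular fibroblast genes, levels were 674, 350 and 602 CPM at 30 °C and 968 and 770 CPM at 4 °C. Per 1000 CPM of these genes, the 6 factors together made up 109, 135 and 164 CPM at 30 °C (136 ± 27.2, SD, n = 3) and 130 and 165 CPM at 4 °C (147 ± 25.4, SD, n = 2). That ratio overlapped between the groups, whereas the summed level of the 6 genes and that of the reticular fibroblast genes each lay apart. The ratio to the skin and body wall factors overlapped too, at 2137, 4344 and 4715 CPM per 1000 at 30 °C and at 4802 and 3088 at 4 °C.

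B cell markers, 6 of 6 above the floor in every library, stood at 1181, 1147 and 3068 CPM at 30 °C and at 3335 and 2826 CPM at 4 °C. Relative to them the 6 factors made up 62.5, 41.2 and 32.1 CPM per 1000 at 30 °C and 37.6 and 45.1 at 4 °C, which again overlap. Log2 fold changes of the B cell markers were positive for 6 of 6 genes, with a median of 0.71, and 0 passed the threshold. They were positive for 1 and negative for 5 of the erythroblast genes (median -0.69). Of the red pulp macrophage genes 1 was positive and 3 were negative (median -0.18). Erythroblast markers (6 of 6 above the floor) were highest in 30 °C replicates 1 and 2, at 4302, 3505 and 2543 CPM against 2902 and 2638. Per 1000 CPM of these the 6 factors made up 17.2, 13.5 and 38.8 CPM at 30 °C and 43.2 and 48.3 at 4 °C, which did not overlap. Red pulp macrophage markers (4 of 4) stood at 1936, 709 and 1501 CPM and at 1050 and 1301 CPM. Against the macrophage markers the 6 factors also stood apart between the groups, at 38.1, 66.7 and 65.7 CPM per 1000 at 30 °C and at 119 and 97.9 at 4 °C. The part of any of these cell types in the temperature difference of the 6 genes was not tested.

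**Figure D4:**
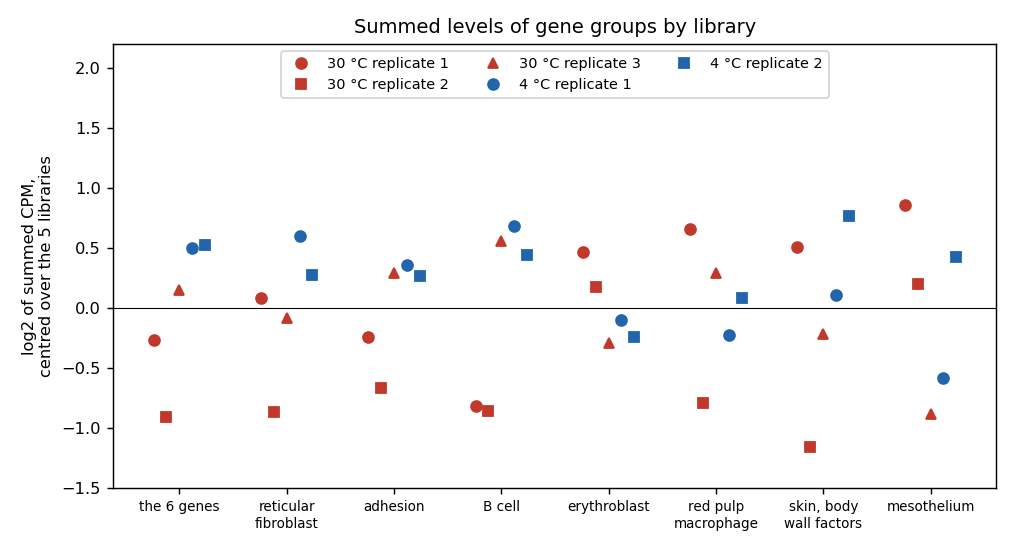
log2 of the summed CPM of the 6 genes and of 7 marker or pathway groups, centred over the 5 libraries (0 is each group's mean), with 1 point per library. For the 6 genes both libraries at 4 °C (125 and 127 CPM) lie above all 3 at 30 °C (47.3 to 98.6 CPM). The reticular fibroblast genes lie apart as well, at 968 and 770 CPM against 350 to 674 CPM. The B cell genes have 30 °C replicate 3 among the libraries at 4 °C, and the erythroblast genes are highest in 30 °C replicates 1 and 2.

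The tissues that share a member with the spleen were represented unevenly. For Wt1, mesothelial markers (3 of 8 above the floor in every library) summed to 15.0, 9.50 and 4.48 CPM at 30 °C and to 5.53 and 11.1 CPM at 4 °C. Msln ranged from 0.295 to 7.32 CPM and Upk3b from 0 to 29 counts. The 4 mesothelial genes tested all had a negative log2 fold change (median -0.74). Podocyte markers (3 of 5) summed to 65.6, 28.9 and 46.3 CPM and to 41.9 and 57.9 CPM. Of the 4 podocyte genes tested 3 had a positive and 1 a negative log2 fold change (median 0.057). The part of these cells in the level of Wt1 was not tested. For Nkx2-5, heart markers (3 of 12) summed to 5.66 to 17.5 CPM. Myh6 was at 0 in every library and Nppa and Tbx5 at no more than 1 count. Of the 4 heart genes tested 3 had a positive and 1 a negative log2 fold change (median 0.63). As for the labelled tissue, 6 of 10 epithelial and colon genes were above the floor in every library, whereas Cdx1 was at 0 in all 5, Cdx2 had at most 8 counts and Vil1 at most 4. Summed, the 10 genes were uneven, at 61.7, 125 and 21.4 CPM at 30 °C and at 19.4 and 92.3 CPM at 4 °C. The 7 of them that were tested all had a negative log2 fold change (median -1.1). Epcam was at 7.91 to 11.4 CPM, but Krt18 ranged from 0.860 to 37.7 CPM and Cdh1 from 2.26 to 24.4 CPM. Both were highest in 30 °C replicate 2, the library rich in acinar transcripts. The B cell, erythroblast and red pulp macrophage markers were above the floor in every library, as were the 6 genes. Whether the RNA came from the labelled tumour or from other tissue was not tested.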

How the data were processed

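RNA of the 5 samples labelled as tumours was sequenced by the authors from Illumina TruSeq libraries, with 200 ng RNA for each group. The deposited values are raw counts per gene, made by the authors with featureCounts 2.0.0 on Gencode vM19 per the paper's methods. The submitters' processing notes also name fastp, HISAT, RSEM and GRCm38 without a role, and the strand setting is not given in the sources used here. Entries without a name (333, 0.0101% to 0.0170% of the counts) were left out. For 97 symbols found more than once, the copy with the most counts on average was used under that symbol.

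The members and lists were chosen with earlier results of these data known. Counts were filtered with filterByExpr and scaled by TMM, and groups were compared by the robust quasi-likelihood test of edgeR 4.0.16 in R 4.3.3, with no covariate and Benjamini-Hochberg adjustment. The method was tested on simulated counts. Log2 CPM for likeness used a prior count of 2. DESeq2 1.42.0 and the other settings are given in the closing section. Exonic lengths are unions of GENCODE M21 exons. In each list the genes named are the 3 with the smallest p and the 2 most abundant per kilobase, and paralogs with few counts and single markers were named after their values were seen. A few genes that it picks are not reported here. Intervals are exact Poisson intervals.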

Additional observations from a re-analysis of the deposited data

How the results depend on the processing

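Over 13 alternatives, 77 of the 78 log2 fold changes of the 6 genes kept a positive sign, and 0 reached an adjusted p under 0.05, the smallest being 0.10 with DESeq2. The exception was Nkx3-2, at -0.11 without 4 °C replicate 1 and at 1.06 without 4 °C replicate 2. The median of the 6 genes ranged from 0.55 to 0.75 with 1 library left out. Over all genes, the count past the threshold was 0 with edgeR without covariate, 111 with DESeq2 and 44 with edgeR and a replicate block. It was 1090 at an unadjusted p under 0.05 with edgeR without covariate. At that unadjusted threshold 3 of the 6 genes passed, and 1 to 4 with 1 library left out. Of the pathway genes, 2 passed with DESeq2 (Cxcl13 and Des). Upper-quartile scaling split the unadjusted calls into 558 higher and 570 lower, against 417 and 673 with TMM, and moved the median of the 6 genes from 0.68 to 0.72. With the replicate block the median of the 6 genes was 0.75, 0 were called and 1 had an unadjusted p under 0.05. The samples share only a number. Deviations of the same-numbered pairs correlated at -0.25 and 0.26, and the largest correlation was 0.62, between 30 °C replicate 3 and 4 °C replicate 1. With 2 libraries at 4 °C their deviations mirror each other, so each correlation recurs with the opposite sign. These values therefore cannot show whether the libraries were paired. The causes of the changes between settings were not tested. Leaving out a library at 4 °C leaves 1 library in that group, which is assumed to vary like the others.

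With 3 and 2 libraries the precision is low, and counting error weighs most where counts are lowest, as for Nkx3-2 with 36 counts in 30 °C replicate 1.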

Other observations

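A few developmental factors among the genes looked up were carried by 1 library. These genes were picked after their values were seen. Gata4, a factor of heart and foregut derivatives, had 202 counts in 30 °C replicate 2 and at most 3 in the other 4 libraries. Barx1, a factor of stomach and spleen mesenchyme, had 24 counts in 4 °C replicate 2 and at most 3 elsewhere. By contrast Hand2, a factor of heart and visceral mesenchyme, had similar counts in all 5 libraries, with 55, 46 and 54 counts at 30 °C and 56 and 53 at 4 °C.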
